A study of Mus musculus with 9 samples.

Results

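The genes described here are keratins, which build the intermediate filaments of epithelial cells, and genes of the junctions between those cells: Krt7, Krt8, Krt18, Krt19, Krt20, Epcam, Cdh1, Cldn1, Cldn4 and Ocln. They were taken by name from a table of read counts per gene with 44806 entries. Of the 10 listed genes, 9 had an entry, and all 9 were among the 16596 genes tested. The level of Krt20 was not analysed here, and the gene enters only the promoter search below.

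RNA was sequenced from 9 mouse tumour samples grown from MB49 cells, a mouse line derived from bladder carcinoma, with 3 libraries in each group. The groups were Lipo-TriTE, Lipo-BiTE and PBS, the buffer control. All 9 libraries carried the same label for genotype, overexpression of HER2, so the control tumours had it too. The labels do not say whether that HER2 is of human or mouse sequence, which targets the Lipo-TriTE and Lipo-BiTE agents bind, or whether the libraries came from separate animals. There was no group given the carrier alone, and dose, time and the age of the hosts were not given in the sources used here. The count columns taken as PBS were headed as untreated, which is an inference from the group left over. The series text names sorted CD3+ T cells as the material, but the labels of the single samples and their protocol give whole frozen tumour and mention no sorting.

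Keratins form filaments only as pairs of a type II and a type I chain. In simple epithelia the pair is Krt8 (type II) with Krt18 (type I), joined by Krt7 (type II) and by Krt19 and Krt20 (type I). E-cadherin, the product of Cdh1, holds neighbouring epithelial cells together at adherens junctions, while claudins and occludin (Cldn1, Cldn4, Ocln) seal the space between cells at tight junctions and Epcam encodes an adhesion molecule of epithelial surfaces. The lining of the bladder, the urothelium, carries these proteins, and some immune cells also use a few of them, such as Epcam and Cdh1 on Langerhans cells.

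Promoter windows of 4 genes are printed because these genes have a window in the reference table and their levels moved: Krt8 and Krt18, which lie near each other and both fell in Lipo-TriTE tumours, and Krt7 and Cldn1, which were at or near 0 counts in PBS tumours. Each window runs from 250 bases before to 50 bases after the start that RefSeq gives in GRCm38.p6, read in the direction of the gene. Capitals mark CAGGTG or its reverse complement CACCTG, the E-box that the Snail and Zeb families of repressors bind. The Krt8 window was chr15:102004293-102004592 on the minus strand, the Krt18 window chr15:102027966-102028265 on the plus strand, the Krt7 window chr15:101412153-101412452 on the plus strand and the Cldn1 window chr16:26371790-26372089 on the minus strand.
Krt8: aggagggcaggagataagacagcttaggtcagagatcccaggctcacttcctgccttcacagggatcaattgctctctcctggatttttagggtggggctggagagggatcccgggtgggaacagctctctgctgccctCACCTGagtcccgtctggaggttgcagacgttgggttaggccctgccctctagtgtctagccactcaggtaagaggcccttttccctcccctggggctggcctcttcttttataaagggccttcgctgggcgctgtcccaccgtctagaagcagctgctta
Krt18: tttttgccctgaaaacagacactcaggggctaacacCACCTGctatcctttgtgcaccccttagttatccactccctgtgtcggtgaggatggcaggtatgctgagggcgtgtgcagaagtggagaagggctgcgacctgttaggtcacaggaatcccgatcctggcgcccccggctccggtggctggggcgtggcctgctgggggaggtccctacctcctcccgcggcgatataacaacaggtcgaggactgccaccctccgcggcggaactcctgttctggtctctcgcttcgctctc
Krt7: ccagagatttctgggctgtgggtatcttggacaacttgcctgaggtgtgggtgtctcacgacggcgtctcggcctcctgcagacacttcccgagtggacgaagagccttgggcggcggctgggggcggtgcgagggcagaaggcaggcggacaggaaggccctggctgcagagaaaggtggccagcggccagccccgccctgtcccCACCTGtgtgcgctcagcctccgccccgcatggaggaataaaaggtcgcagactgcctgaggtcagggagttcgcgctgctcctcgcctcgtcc
Cldn1: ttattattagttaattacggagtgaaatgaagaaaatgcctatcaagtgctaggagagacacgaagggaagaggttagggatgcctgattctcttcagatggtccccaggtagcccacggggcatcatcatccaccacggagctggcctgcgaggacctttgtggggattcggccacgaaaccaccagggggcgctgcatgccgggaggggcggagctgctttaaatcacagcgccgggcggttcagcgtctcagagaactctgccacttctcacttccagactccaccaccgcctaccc
The E-box began at position -111 in the Krt8 window, at -214 in the Krt18 window and at -44 in the Krt7 window, counted from the start, and the Cldn1 window held none. Of the listed genes 8 had a window in the RefSeq table, Krt20 among them, while Cdh1 and Krt19 had none. Of these 8 genes, 6 held CAGGTG on either strand (Krt7, Krt8, Krt18, Epcam, Cldn4 and Ocln). The same motif was in 20.2% of all 32851 windows of this length. Here and below a gene was counted if any of its windows held the motif, while the shares are of windows, not genes. Ocln had more than 1 window. The other motifs searched on both strands were CANNTG, which contains CAGGTG (7 of 8 genes, 72.3% of all windows), AACCGGTT (0 of 8, 0.146%), CCAAT (1 of 8, 37.4%) and TATAAA (2 of 8, 13.6%). Also searched were GGGCGG (5 of 8, 35.7%), TGACTCA (1 of 8, 5.2%), TTCNNNGAA (0 of 8, 8.3%) and GGAA (8 of 8, 96%). A match says only that these letters occur in the window.

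Library totals lay between 13152783 and 20273548 counts. Levels are given as CPM, the count scaled to a common library total after TMM scaling, and 3 counts corresponded to 0.146 to 0.237 CPM. The summed level of 10 T cell markers was 945.5 to 1620 CPM in Lipo-TriTE, 217 to 395 CPM in Lipo-BiTE and 44.4 to 51.6 CPM in PBS tumours, and all 10 were higher in every comparison by the edgeR test used below. The 10 B cell markers summed to 507 to 1424 CPM in Lipo-TriTE, 15.4 to 33.9 CPM in Lipo-BiTE and 9.39 to 12.4 CPM in PBS tumours. Neutrophil markers (1834 to 5442, 1586 to 8545 and 269 to 474 CPM, in the same order) and macrophage markers (599.8 to 780.0, 805 to 1912 and 103 to 167 CPM) were higher in both treatments than in PBS, 10 of 10 each. Fibroblast markers summed to 1089 to 1545 CPM in Lipo-TriTE, 1491 to 2494 CPM in Lipo-BiTE and 2306 to 3427 CPM in PBS tumours, with 6 and 5 of 10 lower than in PBS. Most of this sum was Col3a1, with 242724 counts over the 9 libraries, beside 16753 for Pdpn and 275 for Dcn. Col3a1 was among the genes called lower in Lipo-TriTE but not among those in Lipo-BiTE. The keratinocyte markers stayed low in all groups, at 4.08 to 5.58 CPM in Lipo-TriTE, 3.24 to 7.07 CPM in Lipo-BiTE and 5.34 to 8.56 CPM in PBS tumours, with Krt1 and Flg at 0 in Lipo-BiTE and Krt1, Krt15 and Dsg3 at 0 in PBS. The part that these cell types play in any difference described here was not tested, and in bulk tissue fewer cells of a type and less RNA per cell cannot be told apart.

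In the Lipo-TriTE tumours 3 of the 9 genes were higher than in PBS (Cdh1, Cldn1 and Krt7) and 2 were lower (Krt8 and Krt18), by the edgeR quasi-likelihood test at an adjusted p under 0.05. Over all tested genes 18.9% were higher and 14.8% lower in this comparison. Krt7 and Cldn1 passed the filter on low counts only through the treated libraries, where they were high, so the counts of called genes are given as a description. In the Lipo-BiTE tumours the same 3 genes were higher than in PBS and 0 were lower, against 13.8% higher and 3.22% lower over all genes. At an unadjusted p under 0.05 edgeR gave 1 lower gene there, Krt8, and DESeq2 called 0 at an adjusted p under 0.05. Both comparisons use the same PBS libraries and are therefore not independent. Between Lipo-TriTE and Lipo-BiTE tumours edgeR called 0 of the 9 genes in each direction, against 4.88% higher and 5.21% lower over all genes. At an unadjusted p under 0.05 it gave 1 higher (Epcam) and 2 lower (Krt19 and Cldn1), and DESeq2 called 1 higher (Epcam) and 0 lower. The libraries of both groups did not overlap for 6 genes between Lipo-TriTE and PBS, 5 between Lipo-BiTE and PBS and 1 between the treatments, where the shares over all genes were 49.5%, 42.1% and 30.5%. The median log2 fold change of the 9 genes was -0.55, -0.36 and -0.42 in these 3 comparisons, beside 0.0032, -0.02 and -0.01 over all genes. These medians were the values of Cldn4, Epcam and Krt8, in that order, none of them called in that comparison. The genes went both ways in each comparison, so the medians do not describe a shared fall.

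**Figure D1:**
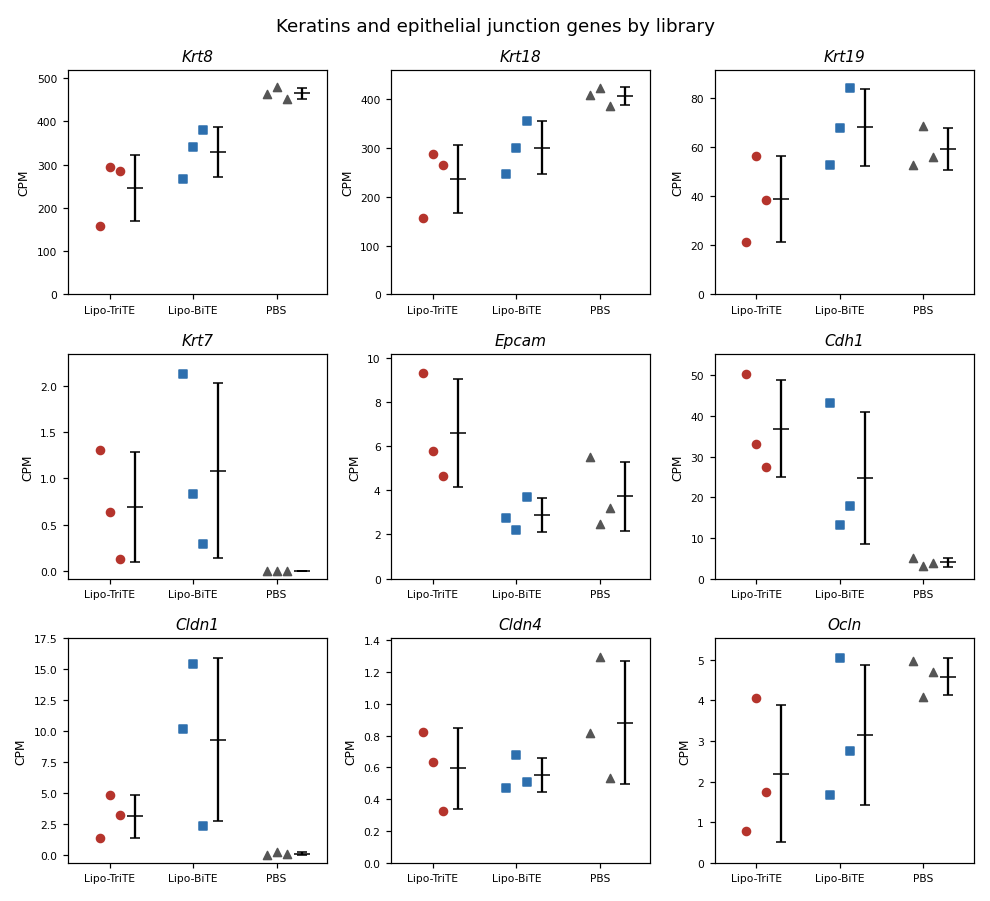
CPM of the 9 genes in each library on linear axes, with the group mean and SD (n = 3) as a bar beside the points, for Lipo-TriTE, Lipo-BiTE and PBS from left to right. Krt8 lies between 159 and 295 CPM in Lipo-TriTE and between 453 and 479 CPM in PBS tumours, while Cdh1 lies between 27.3 and 50.3 CPM in Lipo-TriTE and between 3.07 and 5.12 CPM in PBS tumours.

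**Figure D2:**
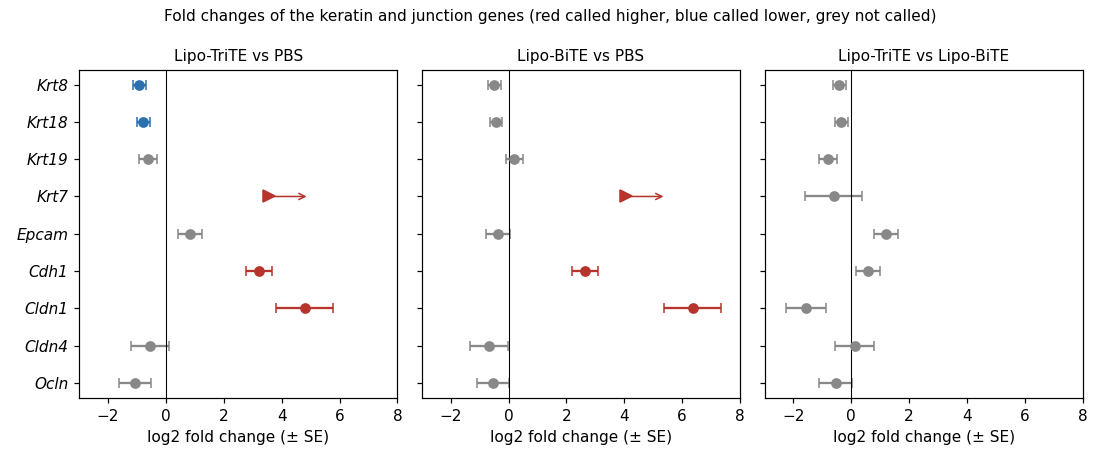
Log2 fold changes with standard errors from edgeR for the 9 genes in the 3 comparisons, with red for higher, blue for lower and grey for not called. The triangles with arrows for Krt7 against PBS stand at the lower bound of the fold, since PBS libraries had 0 counts.

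Krt8, the type II keratin of simple epithelia, and its partner Krt18 were the keratins with most reads, and both fell in Lipo-TriTE tumours. Krt8 had 159, 295 and 286 CPM in the 3 Lipo-TriTE libraries, 266, 341 and 380.0 CPM in the Lipo-BiTE libraries and 463, 479 and 453 CPM in the PBS libraries. All 6 treated libraries lay below all 3 PBS libraries, and the lowest was Lipo-TriTE 1. The group means were 246 ± 76.1 CPM in Lipo-TriTE, 329 ± 58.1 CPM in Lipo-BiTE and 465 ± 13.2 CPM in PBS tumours (SD, n = 3 each). Against PBS, Krt8 was 1.89-fold lower in Lipo-TriTE (log2 fold change -0.92, SE 0.22, edgeR adjusted p = 0.00977). In Lipo-BiTE its difference from PBS did not pass the threshold (log2 fold change -0.50, SE 0.22, edgeR adjusted p = 0.149), although the libraries did not overlap. Without the filter on low counts that difference passed, at an adjusted p of 0.0287, and over the 7 alternative settings the adjusted p lay between 0.0287 and 0.149.

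Krt18, the type I partner, had 156, 287 and 265 CPM in Lipo-TriTE, 246, 299.8 and 356 CPM in Lipo-BiTE and 409, 422 and 386 CPM in PBS libraries. Its libraries stood in the same arrangement as those of Krt8, with every treated library below every PBS library. It was 1.72-fold lower in Lipo-TriTE than in PBS (log2 fold change -0.78, SE 0.22, edgeR adjusted p = 0.0185). That call was lost when PBS 2 was left out (adjusted p = 0.0612), while the 7 alternative settings gave 4.84e-05 to 0.0243. In Lipo-BiTE the log2 fold change against PBS was -0.43 (SE 0.22, edgeR adjusted p = 0.194). Between Lipo-TriTE and Lipo-BiTE tumours the log2 fold change was -0.42 for Krt8 and -0.35 for Krt18, with adjusted p-values of 0.27 and 0.352, and the libraries overlapped.

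Krt19, a small type I keratin without the usual tail, had 21.5, 56.4 and 38.3 CPM in Lipo-TriTE, 52.6, 67.5 and 83.9 CPM in Lipo-BiTE and 52.6, 68.6 and 56.0 CPM in PBS libraries. Lipo-TriTE 1 was again the lowest library, and Lipo-TriTE 2 lay within the range of the PBS libraries. Its differences did not pass the threshold in Lipo-TriTE against PBS (log2 fold change -0.61, SE 0.30, edgeR adjusted p = 0.149), nor in Lipo-BiTE against PBS (0.20, SE 0.30, adjusted p = 0.683), nor in Lipo-TriTE against Lipo-BiTE (-0.82, SE 0.31, adjusted p = 0.121). Without Lipo-TriTE 2 it was called lower in Lipo-TriTE against both PBS (adjusted p = 0.0331) and Lipo-BiTE (adjusted p = 0.047). With no filter on low counts the same pair of comparisons passed, with adjusted p-values of 0.00893 and 0.00059.

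Krt8 and Krt18 moved in step across libraries, Krt19 followed them closely only within groups, and the few reads of Krt7 ran against Krt8 and Krt18. Krt8 and Krt18 had a Pearson correlation of 0.996 over the 9 libraries on log2 CPM and 0.992 after the group means were taken out, which is given as a description. Krt8 and Krt19 had 0.793 over all libraries and 0.925 within groups. Krt7 had -0.79 with Krt8, -0.78 with Krt18 and -0.31 with Krt19 over all libraries, and -0.79, -0.77 and -0.59 within groups. These Krt7 values rest on few reads, with 0 counts in each PBS library and 27 in replicate 1 of each treatment. The ratio of Krt8 to Krt18 per length, which does not depend on library scaling, was 0.744, 0.753 and 0.791 in Lipo-TriTE, 0.793, 0.834 and 0.783 in Lipo-BiTE and 0.831, 0.831 and 0.859 in PBS libraries. All 3 Lipo-TriTE ratios lay below all 3 PBS ratios, a log2 difference of -0.14 (two-sided exact permutation p = 0.1, the smallest that 3 against 3 libraries can give; 0.233 after adjustment over 7 ratio tests). The ratio of Krt19 to Krt18 was 0.104, 0.148 and 0.109 in Lipo-TriTE, 0.161, 0.170 and 0.178 in Lipo-BiTE and 0.0970, 0.123 and 0.109 in PBS libraries. Here the Lipo-BiTE ratios lay above all others, with a log2 difference of 0.64 from PBS, and Lipo-TriTE differed from Lipo-BiTE by -0.51 (exact permutation p = 0.1 in both, adjusted 0.233). Lipo-TriTE and PBS ratios overlapped (difference 0.12, exact permutation p = 0.7). The remaining ratio differences were -0.06 for Krt8 to Krt18 in Lipo-BiTE against PBS, and -0.08 for it between the treatments, with exact permutation p-values of 0.3 and 0.2.

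**Figure D3:**
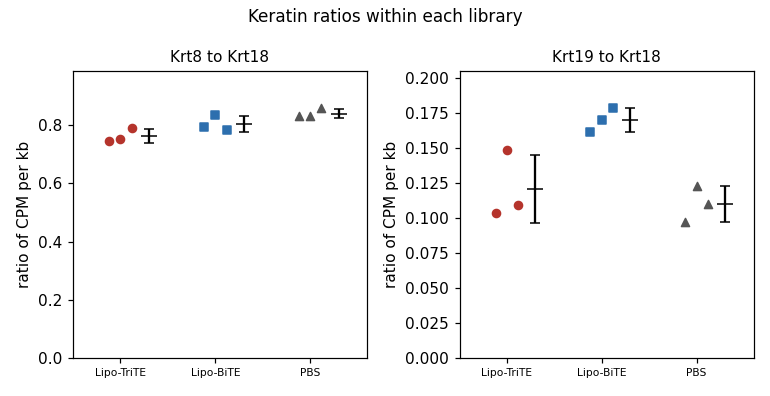
Ratio of Krt8 to Krt18 and of Krt19 to Krt18 in each library, from CPM per kb on linear axes from 0, with group mean and SD (n = 3). The Krt8 to Krt18 ratio is 0.744 to 0.791 in Lipo-TriTE and 0.831 to 0.859 in PBS libraries, and the Krt19 to Krt18 ratio is 0.161 to 0.178 in Lipo-BiTE and 0.0970 to 0.123 in PBS libraries.

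In C57BL/6NJ coordinates, as the table gives them, Krt8 lies on chromosome 15 at 108004893 to 108012595 on the minus strand and Krt18 at 108036611 to 108048166 on the plus strand, with 24015 bases between them. Krt7 lies on the same chromosome at 107317273 to 107339006 (plus strand), and Krt19 on chromosome 11 at 106056636 to 106064493 (minus strand). Krt8, Krt18 and Krt19 together took 92.4% to 95.2% of all reads assigned to keratin genes in Lipo-TriTE, 85.9% to 96.2% in Lipo-BiTE and 97.4% to 97.8% in PBS libraries. All keratins together made up 0.0370% to 0.0702% of all counts in Lipo-TriTE, 0.0571% to 0.0856% in Lipo-BiTE and 0.0953% to 0.102% in PBS libraries. Mammalian genomes carry processed pseudogenes of Krt8 and Krt18, and how reads shared with such copies were counted is not given in the sources used here.

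Krt7, the type II keratin of ductal and urothelial cells, had reads in all 6 treated libraries, though few, and none in PBS. It had 27, 10 and 2 counts (1.31, 0.635 and 0.130 CPM) in Lipo-TriTE, 27, 11 and 4 counts (2.13, 0.827 and 0.291 CPM) in Lipo-BiTE and 0 counts in each PBS library. The 2 counts of Lipo-TriTE 3 lay below the 3 counts used as a floor per library. Replicate 1 gave 27 of the 39 counts in Lipo-TriTE and 27 of the 42 in Lipo-BiTE. Against a floor of 3 counts over the 3 PBS libraries, Krt7 was at least 11.9-fold higher in Lipo-TriTE (edgeR adjusted p = 0.0199) and at least 16.7-fold higher in Lipo-BiTE (edgeR adjusted p = 0.023). Without Lipo-TriTE 1 the bound was 6.06-fold in Lipo-TriTE, and without PBS 2 or PBS 3 it was 7.61-fold or 7.64-fold. In Lipo-BiTE it was 8.73-fold without Lipo-BiTE 1 and 10.7-fold without PBS 2 or PBS 3. Krt7 was removed, and so not tested against PBS, when genes had to reach 1 CPM in 3 libraries or when the 6 libraries of a comparison were fitted alone, which left 2 of the listed genes higher than PBS in each treatment. The call in Lipo-TriTE was lost without Lipo-TriTE 1 (adjusted p = 0.0569), and the call in Lipo-BiTE was lost without Lipo-BiTE 1 (0.0874) or without PBS 1, PBS 2 or PBS 3 (0.053, 0.0561 and 0.0573). Between the treatments the log2 fold change was -0.61 (SE 0.99, edgeR adjusted p = 0.752). The ratio of Krt7 to Krt8 differed by -0.29 on the log2 scale between Lipo-TriTE and Lipo-BiTE (exact permutation p = 0.8).

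The table held 46 other keratin names, of which 5 had no count in any library and 6 were tested. Krt80, a type II keratin with 42431 bases between it and Krt7, was the one that rose in both treatments. It had 16.1, 20.8 and 11.4 CPM in Lipo-TriTE, 74.4, 32.8 and 15.1 CPM in Lipo-BiTE and 2.15, 2.54 and 3.15 CPM in PBS libraries. No treated library overlapped a PBS library, and the log2 fold changes were 2.61 in Lipo-TriTE and 3.95 in Lipo-BiTE (edgeR adjusted p = 0.00382 and 0.00101). Krt13, a keratin of stratified epithelium and of urothelium, was lower in Lipo-TriTE than in PBS, at 1.89 ± 0.525 CPM against 5.40 ± 0.884 CPM (log2 fold change -1.52, edgeR adjusted p = 0.00675). Krt76 was also lower, at 3.73 ± 1.37 CPM in Lipo-TriTE against 7.33 ± 1.36 CPM in PBS (log2 fold change -0.98, adjusted p = 0.0472). In Lipo-BiTE against PBS Krt39 and Krt76 were not called (adjusted p = 0.174 and 0.412). Between the treatments edgeR called 0 of the 6, beside 4.88% higher and 5.21% lower over all genes. At an unadjusted p under 0.05 it gave 1 higher and 2 lower, and DESeq2 called the same numbers.

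Cdh1, which encodes E-cadherin, moved against Krt8 and Krt18. It had 50.3, 33.1 and 27.3 CPM in Lipo-TriTE, 43.2, 13.1 and 17.9 CPM in Lipo-BiTE and 5.12, 3.07 and 3.80 CPM in PBS libraries. Every treated library lay above every PBS library, and Lipo-BiTE 1 stood apart from the other 2 Lipo-BiTE libraries. Against PBS, Cdh1 was 9.27-fold higher in Lipo-TriTE (log2 fold change 3.21, SE 0.46, edgeR adjusted p = 0.000638). It was 6.20-fold higher in Lipo-BiTE (log2 fold change 2.63, SE 0.45, edgeR adjusted p = 0.00293), and 3.90-fold higher when Lipo-BiTE 1 was left out. Both calls held whichever library was left out, with adjusted p-values up to 0.00465 in Lipo-TriTE and 0.0176 in Lipo-BiTE. The difference between the treatments did not pass (log2 fold change 0.58, SE 0.41, edgeR adjusted p = 0.412), except without Lipo-BiTE 1, where it was 2.34-fold and had an adjusted p of 0.0308. The table places Cdh1 on chromosome 8 at 112966328 to 113038535 (plus strand).

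The ratio of Krt8 to Cdh1 in CPM, not corrected for length, was 7.51 ± 3.85 in Lipo-TriTE, 17.8 ± 10.4 in Lipo-BiTE and 122 ± 32.8 in PBS tumours (SD, n = 3 each). Single libraries gave 3.16, 8.92 and 10.5 in Lipo-TriTE, 6.16, 26.1 and 21.2 in Lipo-BiTE and 90.5, 156 and 119 in PBS. These ranges overlapped between the treatments and not with PBS. After the group means were taken out, Krt8 and Cdh1 had a correlation of -0.69 over the 9 libraries on log2 CPM. Within each treatment the library with least Krt8 and most Cdh1, replicate 1, also had the highest sum of T cell markers (1620 CPM in Lipo-TriTE 1 and 395 CPM in Lipo-BiTE 1). The same libraries had the highest sums of B cell markers (1424 and 33.9 CPM) and of Langerhans and dendritic cell markers (192 and 64.2 CPM). Macrophage and neutrophil markers were lowest of their group in Lipo-TriTE 1 (599.8 and 1834 CPM) and highest of their group in Lipo-BiTE 1 (1912 and 8545 CPM). The markers of Langerhans cells and type 1 dendritic cells other than Epcam summed to 167 to 192 CPM in Lipo-TriTE, 50.6 to 64.2 CPM in Lipo-BiTE and 23.9 to 24.8 CPM in PBS tumours, where Cd207 was at 0. Itgae had the most counts of this list, 5013 over the 9 libraries. Whether its reads came from dendritic cells or from T cells, whose markers differed between the same groups, was not tested. The Langerhans marker Cd207 had only 22, of which 18 were in 1 library, and did not pass the filter on low counts. In the tested 5 of these 6 markers, 5 were higher in Lipo-TriTE and 4 in Lipo-BiTE than in PBS, and their part in the Cdh1 difference was not tested.

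**Figure D4:**
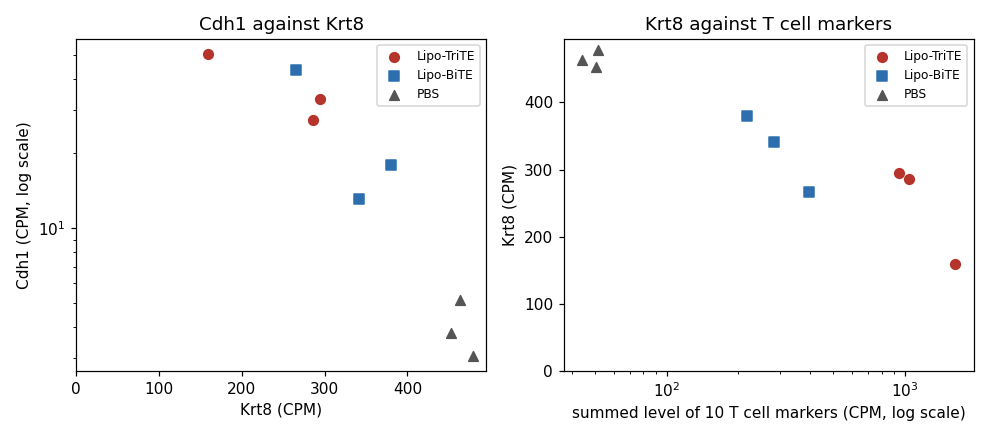
Left, Cdh1 (CPM, log axis) against Krt8 (CPM, linear axis), and right, Krt8 against the summed CPM of 10 T cell markers (log axis), with 1 point per library. The PBS libraries lie apart at high Krt8 (453 to 479 CPM), low Cdh1 (3.07 to 5.12 CPM) and low T cell markers (44.4 to 51.6 CPM).

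Most other adherens junction genes were lower in Lipo-TriTE tumours. Of 10 tested, 1 was higher and 7 were lower in Lipo-TriTE than in PBS by the edgeR test, with a median log2 fold change of -0.72 beside 0.0032 over all genes. In Lipo-BiTE against PBS 1 was higher and 1 lower (median -0.18, all genes -0.02), and in Lipo-TriTE against Lipo-BiTE 0 were higher and 3 lower (median -0.41, all genes -0.01). For the 0, edgeR at an unadjusted p under 0.05 and DESeq2 also gave 0. The shares called over all tested genes were 18.9% higher and 14.8% lower, 13.8% and 3.22%, and 4.88% and 5.21%, in these comparisons. Jup, which encodes plakoglobin, the catenin shared with desmosomes, had 119, 117 and 87.3 CPM in Lipo-TriTE, 197, 223 and 293 CPM in Lipo-BiTE and 202, 273 and 255 CPM in PBS libraries. Its Lipo-TriTE libraries lay below all others, with log2 fold changes of -1.18 against PBS and -1.14 against Lipo-BiTE (edgeR adjusted p = 0.00123 and 0.00737). The vinculin gene Vcl, which links junctions to actin, fell likewise (-1.13 against PBS and -0.80 against Lipo-BiTE, adjusted p = 0.00137 and 0.0245), as did the adhesion receptor gene Nectin2 (-1.09 and -1.03, adjusted p = 0.00226 and 0.0122). Nectin3 was lower in Lipo-BiTE than in PBS (-0.76, adjusted p = 0.0309). Nectin4, an adhesion receptor of epithelial and urothelial tumour cells, had 5.24, 3.87 and 2.01 CPM in Lipo-TriTE, 7.50, 2.93 and 2.11 CPM in Lipo-BiTE and 0, 0.413 and 0.178 CPM in PBS libraries. Its log2 fold change was 4.12 in Lipo-TriTE (edgeR adjusted p = 0.00323) and 4.28 in Lipo-BiTE (adjusted p = 0.00463), with no overlap with PBS. With 0, 7 and 3 counts in the PBS libraries, Nectin4 passed the filter on low counts only through the treated libraries. Its calls are therefore given as a description.

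Of 9 known repressors of Cdh1 transcription, all tested, 1 was higher and 4 were lower in Lipo-TriTE than in PBS, 1 was higher and 1 lower in Lipo-BiTE than in PBS, and 0 were higher and 2 lower in Lipo-TriTE than in Lipo-BiTE (edgeR). Over all tested genes 18.9% were higher and 14.8% lower, 13.8% and 3.22%, and 4.88% and 5.21%, in the same order of comparisons. The median log2 fold changes of the 9 repressors were -0.48, -0.17 and -0.56. For the 0, edgeR at an unadjusted p under 0.05 gave 1 and DESeq2 gave 0. Snai1, the zinc finger gene for Snail, had 12.9, 11.8 and 6.87 CPM in Lipo-TriTE, 31.5, 30.1 and 26.5 CPM in Lipo-BiTE and 16.5, 23.1 and 22.6 CPM in PBS libraries. The groups did not overlap, with Lipo-TriTE lowest and Lipo-BiTE highest. Its log2 fold change was -0.97 in Lipo-TriTE against PBS (edgeR adjusted p = 0.0111) and -1.48 against Lipo-BiTE (adjusted p = 0.00733), and 0.50 in Lipo-BiTE against PBS (adjusted p = 0.175). Twist1, a helix-loop-helix factor of mesenchyme, was lower in Lipo-TriTE than in PBS (-1.11, adjusted p = 0.00151) and than in Lipo-BiTE (-0.82, adjusted p = 0.0228). The others called in Lipo-TriTE against PBS were Klf8, higher (3.02, adjusted p = 0.00198), and Twist2 and Tcf4, lower, and in Lipo-BiTE against PBS Zeb2 was higher (0.84, adjusted p = 0.0354) and Tcf4 lower (-0.50, adjusted p = 0.0257). Several of these genes are also expressed by fibroblasts or myeloid cells, whose markers differed between the groups as given above, and the part of those cells was not tested.

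Epcam, the epithelial adhesion molecule, stayed below 10 CPM in all libraries. It had 9.32, 5.78 and 4.67 CPM in Lipo-TriTE, 2.76, 2.18 and 3.71 CPM in Lipo-BiTE and 5.49, 2.48 and 3.21 CPM in PBS libraries. The Lipo-TriTE libraries lay above the Lipo-BiTE libraries without overlap, while both overlapped PBS. Lipo-TriTE was 2.28-fold above Lipo-BiTE (log2 fold change 1.19, SE 0.41), which did not pass by edgeR (adjusted p = 0.0887) and passed by DESeq2 (adjusted p = 0.0309). Against PBS the log2 fold changes were 0.83 in Lipo-TriTE (edgeR adjusted p = 0.133) and -0.36 in Lipo-BiTE (adjusted p = 0.573). The table places Epcam on chromosome 17 at 94193752 to 94209609 (plus strand).

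Cldn1, which encodes a sealing claudin, had very few reads in PBS tumours. It had 28, 76 and 50 counts (1.36, 4.82 and 3.24 CPM) in Lipo-TriTE, 129, 205 and 32 counts (10.2, 15.4 and 2.33 CPM) in Lipo-BiTE and 0, 4 and 1 counts (0, 0.236 and 0.0594 CPM) in PBS libraries. Every treated library lay above every PBS library, and the treatments overlapped. The counts summed over libraries gave a ratio to PBS of 28.1 in Lipo-TriTE (exact 95% interval 11.8 to 87.8) and 87.1 in Lipo-BiTE (37.0 to 269.8), intervals that cover counting error only. The edgeR fit gave log2 fold changes of 4.80 (SE 0.99, adjusted p = 0.00439) and 6.37 (SE 0.98, adjusted p = 0.0017). Both calls held whichever library was left out, but the fitted folds rested on the few PBS reads: without PBS 2 they were 76.9 in place of 27.8 in Lipo-TriTE and 225 in place of 82.7 in Lipo-BiTE. Lipo-TriTE lay below Lipo-BiTE by a log2 fold change of -1.57 (SE 0.69) that did not pass (edgeR adjusted p = 0.181), though it did with no filter on low counts (adjusted p = 0.00677). Cldn1 lies on chromosome 16 at 24625117 to 24640227 (minus strand).

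Cldn4, a claudin of bladder and gut epithelium, had 5 to 17 counts in Lipo-TriTE, 6 to 9 in Lipo-BiTE and 9 to 22 in PBS libraries. Its levels were 0.826, 0.635 and 0.324 CPM in Lipo-TriTE, 0.473, 0.677 and 0.509 CPM in Lipo-BiTE and 0.817, 1.30 and 0.535 CPM in PBS libraries. The groups overlapped, and no difference was detectable at this depth (log2 fold changes -0.55, SE 0.65, in Lipo-TriTE against PBS, -0.67, SE 0.66, in Lipo-BiTE against PBS and 0.11, SE 0.67, between the treatments, with edgeR adjusted p-values of 0.544, 0.517 and 0.943). Cldn4 lies on chromosome 5 at 144648248 to 144652379 (minus strand).

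Ocln, which encodes occludin, had 0.777, 4.06 and 1.75 CPM in Lipo-TriTE, 1.66, 5.04 and 2.76 CPM in Lipo-BiTE and 4.97, 4.07 and 4.69 CPM in PBS libraries. The Lipo-TriTE libraries lay below the PBS libraries, but Lipo-TriTE 2 (64 counts) all but reached PBS 2 (69 counts). No difference passed: the log2 fold change was -1.07 in Lipo-TriTE (SE 0.57, edgeR adjusted p = 0.173) and -0.54 in Lipo-BiTE (SE 0.56, adjusted p = 0.542) against PBS. Without Lipo-TriTE 2 Ocln was called lower in Lipo-TriTE than in PBS (adjusted p = 0.0374). Between the treatments the log2 fold change was -0.53 (SE 0.57, adjusted p = 0.612). Its gene lies on chromosome 13 at 105464277 to 105520332 (minus strand).

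Among 26 other listed tight junction genes, 22 were in the table and 13 were tested. In Lipo-TriTE against PBS 2 were higher (F11r and Tjp3) and 5 lower (among them Pard3, Tjp1, Cgnl1 and Cldn12) by the edgeR test, with a median log2 fold change of -0.65. In Lipo-BiTE against PBS the same 2 were higher and 0 lower (median -0.28), where edgeR at an unadjusted p under 0.05 gave 2 lower and DESeq2 0. F11r, the gene of the junctional adhesion molecule JAM-A, which blood cells also carry, had 12.9, 15.9 and 8.75 CPM in Lipo-TriTE, 36.3, 22.2 and 10.04 CPM in Lipo-BiTE and 1.71, 1.48 and 1.78 CPM in PBS libraries. Every treated library was above PBS, with log2 fold changes of 2.92 in Lipo-TriTE and 3.78 in Lipo-BiTE (edgeR adjusted p = 0.000826 and 0.000765). Tjp3, a scaffold gene, was at 8.08 ± 5.71 CPM in Lipo-TriTE, 4.41 ± 2.26 CPM in Lipo-BiTE and 0.732 ± 0.495 CPM in PBS tumours, with log2 fold changes of 3.47 and 2.59 (adjusted p = 0.0036 and 0.0265). The PBS libraries alone did not meet the filter on low counts, so Tjp3 was tested only through the treated libraries. Its calls are given as a description. The polarity gene Pard3 fell to 43.5 ± 8.19 CPM in Lipo-TriTE, with 85.2 ± 17.3 CPM in Lipo-BiTE and 111 ± 7.03 CPM in PBS tumours (-1.35 against PBS and -0.97 against Lipo-BiTE, adjusted p = 0.000416 and 0.0104). Tjp1, the ZO-1 scaffold, was at 165 ± 30.8 CPM in Lipo-TriTE and 370 ± 24.3 CPM in PBS tumours (-1.17, adjusted p = 0.00139), and at 253 ± 58.2 CPM in Lipo-BiTE (-0.55 against PBS, adjusted p = 0.0783). In Lipo-TriTE against Lipo-BiTE 0 were higher and 2 lower, Pard3 among them, and for the 0 edgeR at an unadjusted p under 0.05 and DESeq2 also gave 0. The shares over all tested genes were 18.9% higher and 14.8% lower, 13.8% and 3.22%, and 4.88% and 5.21%, in these 3 comparisons.

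**Figure D5:**
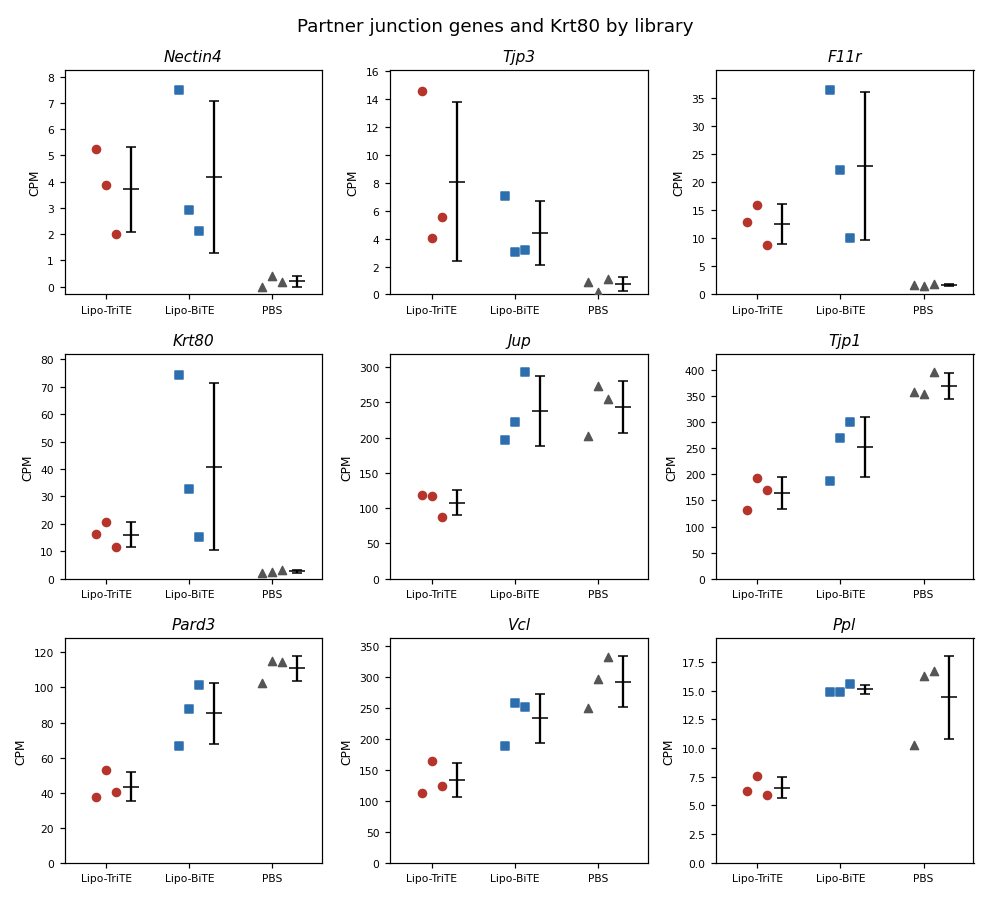
CPM of 8 junction and linker genes and Krt80 in each library on linear axes, with group mean and SD (n = 3), for Lipo-TriTE, Lipo-BiTE and PBS from left to right. Nectin4, Tjp3, F11r and Krt80 were above PBS in every treated library, while Jup was 87.3 to 119 CPM in Lipo-TriTE and 202 to 273 CPM in PBS libraries.

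Of 16 listed genes of desmosomes and keratin linkers, 15 were in the table and 10 were tested. The desmosomal cadherin genes Dsg2, Dsc2, Dsg3 and Dsc3 and the plakophilin gene Pkp1 did not pass the filter, with at most 15 counts in any library. In Lipo-TriTE against PBS 3 were higher (Pkp3, Perp and Itgb4) and 4 lower (Ppl, Itga6, Dst and Cd151) by edgeR, with a median log2 fold change of -0.80. Pkp3, a plakophilin of desmosomal plaques, was at 40.4 ± 12.2 CPM in Lipo-TriTE against 11.9 ± 4.05 CPM in PBS tumours (log2 fold change 1.76, adjusted p = 0.00114). Ppl, which encodes periplakin, a linker of filaments to junctions, was at 6.55 ± 0.878 CPM in Lipo-TriTE, 15.1 ± 0.380 CPM in Lipo-BiTE and 14.4 ± 3.61 CPM in PBS tumours (-1.14 against PBS and -1.21 against Lipo-BiTE, adjusted p = 0.00397 and 0.0117). In Lipo-BiTE against PBS edgeR called 0 of 10 in each direction (median -0.12), with 1 higher and 2 lower at an unadjusted p under 0.05 and 1 higher and 0 lower by DESeq2. In Lipo-TriTE against Lipo-BiTE 1 was lower and 0 were higher, with 2 higher at an unadjusted p under 0.05 and 1 by DESeq2. All tested genes gave 18.9% higher and 14.8% lower, 13.8% and 3.22%, and 4.88% and 5.21%, in these 3 comparisons by edgeR.

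Markers of the urothelium were mostly at or near 0 in tumours that the labels derive from bladder cancer cells. Of 12 listed genes, Krt5 and Krt13 among them, 11 were in the table and 4 were tested. The uroplakin genes Upk1a, Upk1b, Upk2, Upk3a and Upk3b, which build the surface plaques of umbrella cells, had at most 18 counts in any library, the basal cell factor Trp63 had at most 12, and Shh had 0 in all 9. Gata3, a factor of luminal urothelium and also of T cells, was at 11.9 ± 3.75 CPM in Lipo-TriTE, 8.86 ± 1.83 CPM in Lipo-BiTE and 4.23 ± 1.51 CPM in PBS tumours. It was higher in both treatments than in PBS (2.83-fold and 2.10-fold, edgeR adjusted p = 0.00552 and 0.047), beside the T cell markers given above, whose part was not tested. Krt13, described above, was the one lower in Lipo-TriTE, and 0 were lower in Lipo-BiTE by edgeR, also at an unadjusted p under 0.05 and by DESeq2. Against PBS, all tested genes gave 18.9% higher and 14.8% lower in Lipo-TriTE, and 13.8% and 3.22% in Lipo-BiTE.

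A wider list of 29 epithelial genes, made of transcription factors, surface and secreted proteins, membrane serine proteases and their inhibitors, had 19 tested members. In Lipo-TriTE against PBS 9 were higher and 1 lower by edgeR (median log2 fold change 1.33), beside 18.9% and 14.8% over all genes. In Lipo-BiTE against PBS 8 were higher and 0 lower (median 1.38), beside 13.8% and 3.22%. Between Lipo-TriTE and Lipo-BiTE 1 was higher and 2 were lower (median -0.13), beside 4.88% and 5.21%. For the 0, edgeR at an unadjusted p under 0.05 gave 1 and DESeq2 gave 0. Spint2, an inhibitor of matriptase, had 44.2, 25.0 and 20.4 CPM in Lipo-TriTE, 12.5, 10.5 and 6.62 CPM in Lipo-BiTE and 0.297, 2.36 and 1.19 CPM in PBS libraries (log2 fold changes 4.50 and 2.90 against PBS, edgeR adjusted p = 0.000312 and 0.00495). With PBS 1 that low, Spint2 met the filter on low counts only with treated libraries, and its calls are given as a description. Spint1, a related inhibitor, was at 35.1 ± 3.55 CPM in Lipo-TriTE, 99.95 ± 69.7 CPM in Lipo-BiTE and 5.74 ± 0.808 CPM in PBS tumours, so that it was higher in both than in PBS and lower in Lipo-TriTE than in Lipo-BiTE (2.61, 4.12 and -1.51, adjusted p = 0.00145, 0.000765 and 0.0399). Cd24a, a surface glycoprotein gene that B cells and neutrophils also express, was at 142 ± 35.8 CPM in Lipo-TriTE, 164 ± 110 CPM in Lipo-BiTE and 10.5 ± 2.92 CPM in PBS tumours (3.75 and 3.96 against PBS, adjusted p = 0.000543 and 0.000914). Lcn2 was also called higher in both treatments. Cd24a and Lcn2 had the most counts of this list (14107 and 13648 over the 9 libraries). Neutrophil markers were higher in both treatments, as given above, and the part of those cells was not tested. Klf4, a factor of epithelial and myeloid differentiation, was higher in Lipo-BiTE than in PBS (2.11, adjusted p = 0.00125) and lower in Lipo-TriTE than in Lipo-BiTE (-1.28, adjusted p = 0.026). The one lower in Lipo-TriTE than in PBS was Foxa2, a forkhead factor of endodermal epithelium (-1.25, adjusted p = 0.00645). The splicing regulator gene Esrp1 and the factor gene Grhl3, both of epithelia, had at most 7 and 4 counts in any library. Ovol1, Ovol2, Rab25, Prss8, Tmprss2, Tmprss4, Cldn7 and Hnf4a were also too low to be tested, with at most 19 counts in any library.

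Per length, the order of mean levels was Krt18, Krt8, Krt19 in every group. In CPM per kb, Krt18 had 169 ± 49.99 in Lipo-TriTE, 215 ± 39.2 in Lipo-BiTE and 289.9 ± 13.1 in PBS tumours, and Krt8 had 129 ± 39.9, 172 ± 30.4 and 243 ± 6.89 in the same order of groups. The difference between these neighbours was smaller than the SD of Krt18 in Lipo-TriTE and larger than both SDs in PBS, while their ratio within a library, given above, was below 1 in all 9. Krt19 stood well below both in all groups at 20.9 ± 9.41 in Lipo-TriTE, 36.7 ± 8.46 in Lipo-BiTE and 31.8 ± 4.56 in PBS. Next came Cdh1 in Lipo-TriTE (8.06 ± 2.61) and in Lipo-BiTE (5.40 ± 3.53), and Ocln in PBS tumours (2.70 ± 0.271). Cdh1 ranked 6 in PBS tumours, at 0.874 ± 0.227, below Epcam at 1.83 ± 0.771. Krt7 was last in every group, with a deposited gene model of 7059 bases, longer than those of the other keratins here (1400 to 1910 bases).

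Profiles like each member were sought among tested protein-coding genes with a symbol, leaving out predicted models, immunoglobulin genes and T cell receptor genes. The most like across the 9 libraries were found by Pearson correlation of log2 CPM, as a description, since the libraries share their groups. For Krt8 they were Krt18 (0.996), Arhgap42 (0.995) and Cd151 (0.991), and for Krt18, after Krt8, Morc4 (0.989) and Cda (0.987). Those of Cdh1 were Cds1 (0.991), Acp5 (0.989) and Rinl (0.987). Cldn1 was followed most closely by Il1a (0.993), Mreg (0.991) and Il1rn (0.987), of which Il1a and Il1rn encode an interleukin and a receptor antagonist of the interleukin-1 family. Among the profiles most like Krt19 were Tmem41b (0.950) and Trip10 (0.950), and Krt7 was most like Atg16l1 (0.987), Lipe (0.987) and Tatdn2 (0.983). The highest values for Epcam (Gsg2, 0.953), Ocln (Htra1, 0.956) and Cldn4 (Ptges2, 0.938) were lower.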

How the data were processed

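Total RNA of frozen tumour tissue was extracted in Trizol and on columns, and fragmented mRNA was copied with random primers and amplified by PCR, per the labels' protocols. Whether strand was kept, and the aligner, counting tool and build, is not given in the sources used here. Per the file headers, the authors deposited 1 table of raw read counts per gene, whose identifiers are those of C57BL/6NJ gene models, with gene length and position. A repeated name (52 in all) was kept by the entry with most counts. Totals per library were 13152783 to 20273548, and intervals and floors cover counting error only.

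Counts were tested in R 4.3.3 with edgeR 4.0.16: filterByExpr, TMM scaling and the robust quasi-likelihood F test over all 9 libraries with 1 mean per group (6 residual degrees of freedom), adjusted by Benjamini-Hochberg over the 16596 tested genes. Standard errors are the log2 fold change divided by the root of F. Ratios of 2 keratins were compared by exact two-sided permutation of 10 splits. A group at 0 was set to 3 counts for a bound, and Cldn1 was given as a ratio of counts with an exact 95% interval, both chosen after seeing the data, as was leaving out each library for the bound. DESeq2 1.42.0, other scalings, filters and sample sets, a replicate block and leaving out each library were the alternatives. Numbers given for DESeq2 are calls at an adjusted p under 0.05, also where they stand beside unadjusted edgeR numbers. The steps were tested on simulated counts.

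The 10 genes, the gene lists, the markers and the motifs were chosen with earlier results of these data known. All listed genes are named, with up to 3 genes by smallest p of each list and of the other keratins in each comparison, the 3 most similar profiles, and every called or single gene where 5 or fewer were counted; other partners were named after their values were seen. Some genes that this rule would name are not reported here. P-values measure the spread between libraries, which may be technical. Promoter windows are from RefSeq, GRCm38.p6. Every pair of libraries of a group differed by more than counting noise (chi-square over its degrees of freedom 5.11 to 102).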

Additional observations from a re-analysis of the deposited data

How the results depend on the processing

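Over the alternatives other than leaving out a library, 174 of 179 gene-level values stayed on the same side of the threshold, 5 gained a call and 0 reversed; Krt7 and Cldn4 gave fewer values, since some settings removed them. Library totals without TMM shifted the median of all genes to -0.16 (Lipo-BiTE against PBS) and 0.11 (between the treatments). Counts depended most on the setting for genes lower in Lipo-BiTE than in PBS: 534 in the main analysis, 839 with no filter, 995 by DESeq2, 988 with totals only and 282 with the replicate block. Same-numbered libraries correlated by only -0.19 to 0.08, so the numbers were not taken as pairs. For Lipo-TriTE against Lipo-BiTE, 810 genes were higher (1538 with no filter, 1475 by DESeq2) and 865 lower (1455 with no filter, 510 with the 6 libraries alone, 451 with totals only). Of the keratin and junction genes, no filter gave 1 lower in Lipo-BiTE against PBS and 2 lower in Lipo-TriTE against Lipo-BiTE, and DESeq2 gave 1 higher in the last. Leaving out single libraries gave, for Lipo-TriTE against PBS, 2575 to 2925 genes higher and 1391 to 2222 lower, with 2 to 3 and 1 to 4 of the 9 genes; for Lipo-BiTE against PBS, 1455 to 2656 higher and 80 to 971 lower, with 2 to 3 and 0; and for Lipo-TriTE against Lipo-BiTE, 276 to 901 higher and 158 to 1031 lower, with 0 to 1 in each direction. The log2 ratio of Krt19 to Krt18 in Lipo-TriTE against PBS was -0.038 (without Lipo-TriTE 2) to 0.22, and that of Krt7 to Krt8 between the treatments -1.32 to 0.78 (without Lipo-TriTE 3), with 0.56 without Lipo-BiTE 1. Log2 fold changes that turned round belonged to comparisons edgeR did not call: between the treatments, Cldn4 (-0.18 without Lipo-TriTE 1, -0.01 without Lipo-BiTE 1, up to 0.39) and Krt7 (0.30 without Lipo-BiTE 1, down to -1.44), and in Lipo-BiTE against PBS, Epcam (0.016 without PBS 1, down to -0.61). The cause was not tested. Depth limited Krt7 and Cldn4, and Cldn1 in PBS tumours, most.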

Other observations

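Reads assigned to Krt7 were set beside those of its neighbour Krt80. There were 8.13, 3.06 and 1.14 Krt7 reads per 100 Krt80 reads in the Lipo-TriTE libraries, 2.86, 2.52 and 1.92 in the Lipo-BiTE libraries and 0 in each PBS library, where Krt80 had 29, 43 and 53 counts. Whether reads of 1 gene were assigned to the other was not tested.

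Markers of other epithelia and stroma were summed in each library. The mammary and salivary list was at 122 to 182 CPM in Lipo-TriTE, 46.2 to 82.3 CPM in Lipo-BiTE and 42.8 to 47.1 CPM in PBS tumours. The milk protein gene Wap was at 0 in Lipo-TriTE and in PBS, and Elf5 at 0 in Lipo-TriTE, while Csn2 and Lalba were at 0 in PBS. Most of this sum was Ltf, which neutrophils also express, with 8194 counts over the 9 libraries. In Lipo-TriTE against PBS Ltf was higher (log2 fold change 4.59, edgeR adjusted p = 0.000467) and the casein gene Csn3 lower (-1.20, adjusted p = 0.00416), and the other 2 tested genes were not called. Mesothelial markers summed to 3.54 to 4.32 CPM in Lipo-TriTE, 2.29 to 2.63 CPM in Lipo-BiTE and 1.96 to 2.89 CPM in PBS tumours. Endothelial markers were at 157 to 226 CPM in Lipo-TriTE, 225 to 241 CPM in Lipo-BiTE and 137 to 161 CPM in PBS tumours. This sum was made mostly of Cdh5 (17637 counts over the 9 libraries) and Pecam1 (7166 counts), of which leukocytes also carry Pecam1. Tek, Emcn, Cldn5 and Esam did not pass the filter on low counts, with 46, 21, 7 and 68 counts over the 9 libraries. The sum therefore says little on the endothelium as a whole. Of 6 tested, Pecam1, Kdr and Erg were higher and Cdh5 was lower in Lipo-TriTE than in PBS by edgeR. Erg was at 0 in PBS tumours and so passed the filter on low counts only through the treated libraries. The sum of the lymph node stroma list was that of Clu, its one tested gene, with 15150 counts over the 9 libraries beside 40 for Cxcl13, 70 for Il7, 7 for Madcam1 and 3 for Glycam1. It was at 70.4 to 77.5 CPM in Lipo-TriTE, 80.4 to 145 CPM in Lipo-BiTE and 139.9 to 159 CPM in PBS tumours. Skeletal muscle markers were at 23.0 to 31.2, 21.5 to 28.2 and 32.0 to 35.0 CPM in the same order of groups.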
